A study of Drosophila melanogaster with 6 samples.

Results

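The vacuolar ATPase is the proton pump that acidifies lysosomes, endosomes and the Golgi apparatus. Its cytosolic V1 sector hydrolyses ATP and turns a central shaft, and its membrane sector V0 carries protons across the bilayer through a ring that the shaft drives. In insects the same pump also energises the plasma membrane of secretory epithelia, and in many cells its assembly on the lysosome takes part in nutrient sensing by TORC1. *Drosophila* encodes several subunits in more than 1 gene, of which 1 is usually expressed widely and the others in a few tissues such as testis or gut.

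The genes described here are the rows of the RNA-seq table whose symbol begins with Vha. There are 33 of them among 14540 rows. They fall into 13 genes of the V1 sector, 18 genes of the V0 sector and 2 accessory genes, and cover 15 kinds of subunit. Of these subunits, 7 have a single gene among the 33 and 8 have several. For each subunit the gene with the highest level in S2 cells is called the leading copy, so the leading copies were chosen by a measured value. In all 8 subunits with several genes, the same copy had the highest level in SIN3 187HA cells as well.

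S2 cells, a line derived from *Drosophila* embryos with hemocyte features, were compared with SIN3 187HA cells. The latter are S2 cells with a stably integrated transgene for the SIN3 187 isoform, tagged with HA and driven by a copper-inducible metallothionein promoter. In this line the authors report, from a western blot, an almost complete loss of the other SIN3 isoform, which predominates in S2 cells. Both groups received CuSO4, labelled as 0.07 µM for 48 h on replicate 1 of each group, and carry the wild type genotype otherwise. Each group has 3 biological replicates, which the authors combined into 1 FPKM value (fragments counted on a gene, divided by transcript length and library size) per gene and group. No value per replicate and no test could therefore be given, and every difference below is a difference between 2 combined values whose spread is not known. The line carrying the transgene was also grown with other antibiotics than S2 cells, including Geneticin, and whether it is 1 clone is not stated in the sources used here. Effects of the transgene, of the loss of the other isoform, of selection and of the medium cannot be told apart.

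*Sin3A* was at 56.9 FPKM in S2 cells, against 2319 FPKM in SIN3 187HA cells, a 40.8-fold higher level, as the labels require. The smallest FPKM values occur in steps of 1 fragment, from which a depth of about 15.3 M fragments per library was estimated for S2 cells and 15.9 M for SIN3 187HA cells. Of 9 hemocyte markers, 8 had a mean FPKM of at least 1, whereas *Hml* was at 0.520 and 0.676 FPKM. Of 12 markers of other tissues, 1 had a mean of at least 1. This was the neuronal gene *elav*, at 2.39 FPKM in S2 and 6.74 FPKM in SIN3 187HA cells. Relative to S2 cells, 4 of the 8 hemocyte markers were at least 2-fold lower and 1, *Pvr*, was at least 2-fold higher, beside 12.3% and 12.9% of all rows with a mean FPKM of at least 1. The scavenger receptor gene *eater* differed most, at 50.2 and 2.30 FPKM. Whether these differences between the lines bear on the pump genes was not tested. In a bulk sample, fewer cells that express a gene and less RNA per cell cannot be told apart.

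The pump was expressed in S2 cells through 1 high copy of nearly every subunit. The 15 leading copies lay between 101 and 815 FPKM in S2 cells, with a median of 252 FPKM. The 18 other copies lay between 0 and 93.7 FPKM, with a median of 0.637 FPKM, and 13 of them were below 1 FPKM. In SIN3 187HA cells the leading copies lay between 73.2 and 679 FPKM, with a median of 159 FPKM, and the median of the other copies was 0.621 FPKM. The separation between leading and other copies in S2 cells follows from how the leading copies were chosen.

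**Figure D1:**
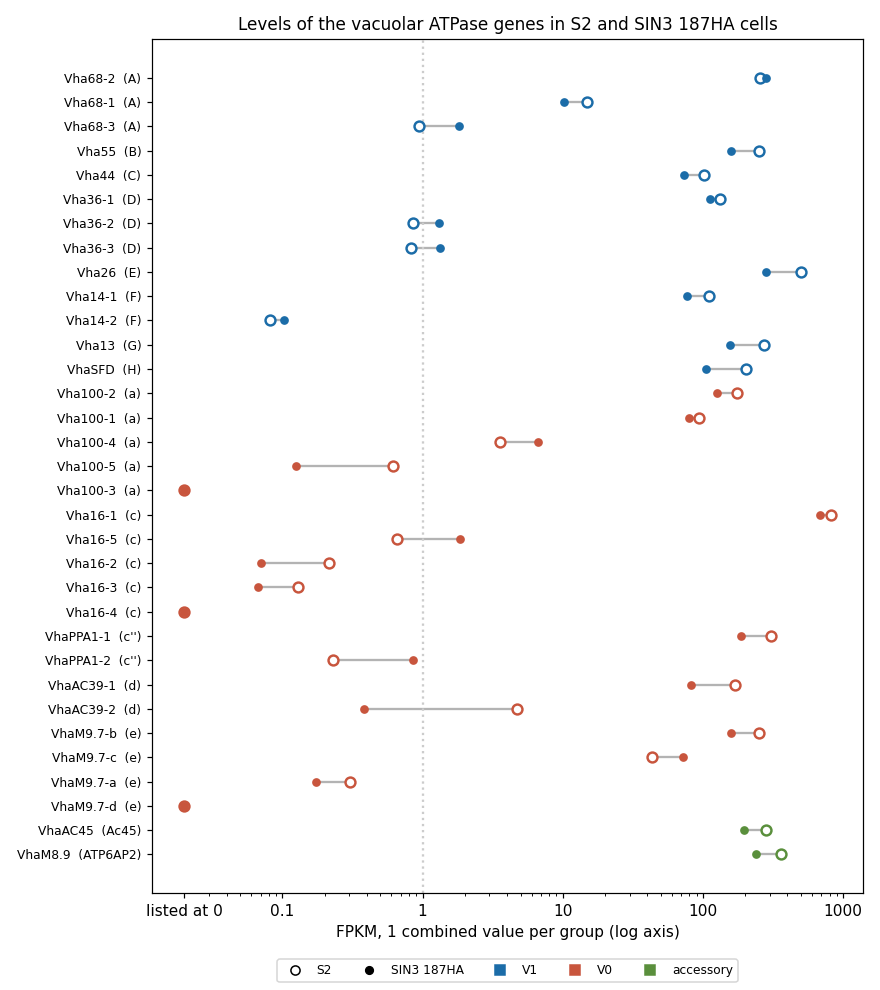
FPKM of the 33 vacuolar ATPase genes on a log axis, with the subunit in parentheses, open circles for S2 cells, filled circles for SIN3 187HA cells and colours for the sector. The dotted line marks 1 FPKM, and *Vha100-3*, *Vha16-4* and *VhaM9.7-d* are listed at 0 in both groups. In 14 of the 15 leading copies the filled circle lies to the left of the open one.

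Changes are given as the log2 of the FPKM in SIN3 187HA cells over that in S2 cells, with 0.1 FPKM added to both, which understates the change of low genes. A gene was taken as expressed when the mean of the 2 groups was at least 1 FPKM. This held for 24 of the 33 genes and for 8202 rows of the table. A gene was counted as past the limit when its level differed at least 2-fold. By this count 2 of the 24 expressed genes were lower in SIN3 187HA cells, *VhaAC39-1* and *VhaAC39-2*, against 12.3% of all expressed rows. On the higher side 12.9% of all expressed rows were past the limit, and 1 pump gene was, *Vha16-5*. It was below 1 FPKM in S2 cells and counted as expressed through SIN3 187HA cells, so nothing is read from its direction. Likewise *VhaAC39-2* counted as expressed through S2 cells. Most of the pump genes thus lay within the 2-fold limit.

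Below that limit the pump genes leaned to one side. Of the 24 expressed genes, 17 had a log2 change below 0, beside 52.5% of all expressed rows. The median of the 24 was -0.50, beside -0.04 for all expressed rows. Both figures take in genes whose direction is not a result. *VhaAC39-2* had to be lower to count as expressed, and *Vha16-5*, *Vha68-3*, *Vha36-2* and *Vha36-3* had to be higher. The lean was carried by the leading copies, of which 14 of 15 were lower in SIN3 187HA cells. Their median log2 change was -0.58, and they ranged from -1.05 to 0.16. Among all 2039 rows with a mean FPKM of at least 50, which take in all leading copies, 59.3% were below 0, with a median of -0.13 and quartiles at -0.56 and 0.34. With a limit of 1.5-fold, 8 of the 24 expressed genes were lower, beside 21.4% of all expressed rows. Among these 8, *VhaAC39-2* was below 1 FPKM in SIN3 187HA cells and had to be lower to count as expressed. On the higher side there were 5, beside 21.2% of all expressed rows, but 3 of the 5, *Vha16-5*, *Vha68-3* and *Vha36-3*, were below 1 FPKM in S2 cells and had to be higher to count as expressed. Of the 15 leading copies 7 were lower and 0 higher at that limit, where 23.6% of the rows of at least 50 FPKM were lower and 16.9% higher. Since the leading copies rest on at least 2341 estimated fragments in S2 cells, against 1674 in SIN3 187HA cells, counting error is small for them. The spread between cultures remains unknown. These figures describe the list and are not a test of it.

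**Figure D2:**
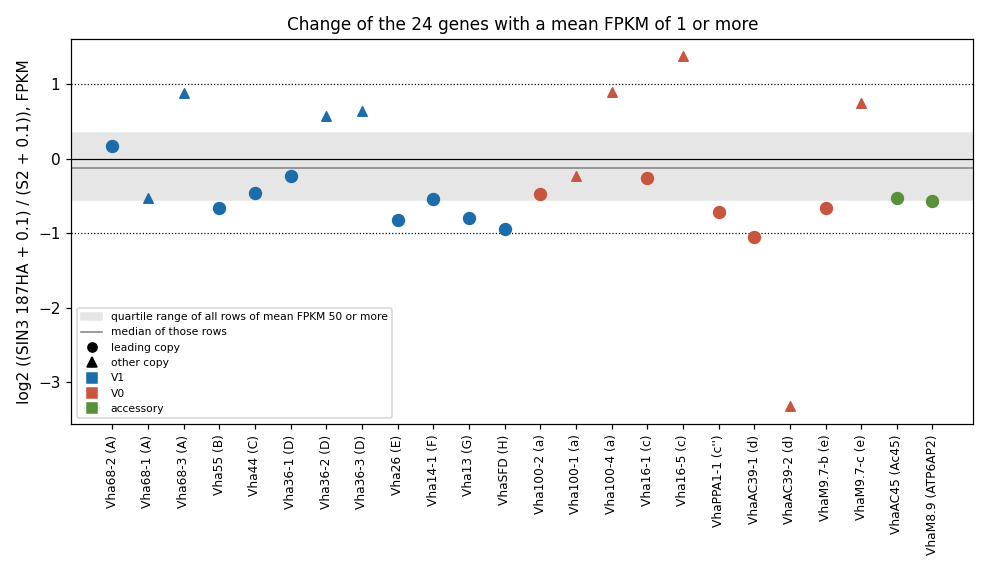
Log2 change of the 24 expressed genes, with circles for leading copies, triangles for other copies and colours for the sector. The dotted lines mark a 2-fold difference, and the grey band runs from the lower to the upper quartile (-0.56 to 0.34) of the 2039 rows with a mean FPKM of at least 50. *Vha68-2* is the single leading copy above 0.

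In the V1 sector the catalytic head is built of subunits A and B. *Vha68-2*, on chromosome arm 2L of dm3 from 12974322 to 12978607, encodes subunit A, which holds the catalytic site. It was at 253 FPKM in S2 cells, against 283 FPKM in SIN3 187HA cells, a ratio of 1.12. *Vha55*, on 3R from 8449484 to 8453551, encodes subunit B, the partner of A in the head. It was at 252 FPKM in S2 cells, against 159 FPKM in SIN3 187HA cells, 37.0% lower. The ratio of *Vha68-2* to *Vha55* was therefore 1.00 in S2 cells, against 1.78 in SIN3 187HA cells on the FPKM scale, which corrects for transcript length. Within the head, the genes of both partners stood at equal levels in S2 cells and at unequal levels in SIN3 187HA cells.

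The peripheral stalks that hold the head in place are made of subunits E and G, and C joins them to the membrane sector. *Vha26* (subunit E, 3R from 1417485 to 1420421) was the most abundant V1 gene in S2 cells, with 499 FPKM. It was at 282 FPKM in SIN3 187HA cells, 43.5% lower and level with *Vha68-2* there. *Vha13* (subunit G, 3R from 15468980 to 15470108) was at 273 FPKM in S2 cells, against 157 FPKM in SIN3 187HA cells, 42.5% lower. The genes of both stalk subunits thus had nearly the same change, with log2 values of -0.82 and -0.80. *Vha44* (subunit C, 2R from 12212318 to 12231684) was at 101 and 73.2 FPKM, 27.6% lower. *Vha44* shares its locus in the table with 2 other rows, so its reads may be less cleanly assigned. These were *Hmgs*, at 116 FPKM in S2 cells and 129 FPKM in SIN3 187HA cells, and *CG7997*, at 86.7 and 16.2 FPKM.

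The central shaft consists of subunits D and F. *Vha36-1* (subunit D, 2R from 11428922 to 11430003) was at 132 FPKM in S2 cells, against 111 FPKM in SIN3 187HA cells, 15.3% lower. *Vha14-1* (subunit F, 2R from 11566931 to 11567585) was at 111 and 76.5 FPKM, 31.1% lower. *VhaSFD* encodes subunit H, which is needed for activity and, in yeast, silences V1 once it has left the membrane. It lies on 2L from 16722883 to 16727826 and was at 202 FPKM in S2 cells, against 105 FPKM in SIN3 187HA cells, 48.1% lower. Its log2 change of -0.95 was the lowest among the V1 genes and stayed just inside the 2-fold limit. Over the 8 leading V1 copies the median log2 change was -0.60, and 7 of the 8 were lower in SIN3 187HA cells.

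In the V0 sector, subunit a forms the path for protons beside the rotating ring and directs the pump to its membrane. *Vha100-2* (3R from 14216045 to 14226061) was at 176 FPKM in S2 cells, against 126 FPKM in SIN3 187HA cells, 28.0% lower. *Vha100-1*, the copy known for its role in neurons (3R from 24956915 to 24964295), was at 93.7 and 79.5 FPKM, 15.1% lower. Of the subunits with several genes, subunit a was divided most evenly between copies. *Vha100-2* made up 64.2% of its summed FPKM in S2 cells, against 59.4% in SIN3 187HA cells, with most of the rest from *Vha100-1*. Both genes share their locus with another row of the table.

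The rotating ring is made of subunits c and c''. *Vha16-1* (subunit c, 2R from 2512747 to 2520595) had the highest level of all 33 genes, with 815 FPKM in S2 cells, against 679 FPKM in SIN3 187HA cells. It was 16.7% lower, a smaller difference than that of the c'' gene. *VhaPPA1-1* (subunit c'', 3R from 10728048 to 10729796) was at 307 and 187 FPKM, 39.3% lower. Several c subunits and a single c'' subunit enter each ring, and the levels of both genes stood in that order in both groups.

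*VhaAC39-1* encodes subunit d, which couples the ring to the shaft. It lies on X from 3774777 to 3777000 and was at 171 FPKM in S2 cells, against 82.6 FPKM in SIN3 187HA cells, 2.07-fold lower. With a log2 change of -1.05 it was the single leading copy past the limit, by a narrow margin. Subunit e is a small membrane protein. *VhaM9.7-b* (3L from 21532962 to 21534315) was at 252 FPKM in S2 cells, against 159 FPKM in SIN3 187HA cells, 36.8% lower. The 5 leading V0 copies were lower in SIN3 187HA cells, with a median log2 change of -0.66.

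Both accessory genes were lower by similar amounts. *VhaAC45* encodes the Ac45 protein, which is bound to V0 on the lumenal side, and lies on 2R from 5095067 to 5097167. It was at 282 FPKM in S2 cells, against 195 FPKM in SIN3 187HA cells, 30.9% lower. *VhaM8.9*, listed in RefSeq as *ATP6AP2*, encodes the homologue of the prorenin receptor and lies on 3R from 5086363 to 5088314. It was at 359 and 241 FPKM, 32.9% lower.

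The order of the leading copies by level was largely kept. Across the 15 genes the levels in both groups had a Spearman rho of 0.90 and a Pearson r of 0.93 on the log2 scale, as a description of values from the same 2 sets of libraries. *Vha16-1* was first in both groups. *Vha68-2* moved from rank 7 in S2 cells to rank 2 in SIN3 187HA cells, and *Vha44* was last in both. The highest leading copy exceeded the lowest 8.06-fold in S2 cells, against 9.28-fold in SIN3 187HA cells.

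Of the other 18 copies, 9 were expressed by the criterion above, and 4 of these 9 were below 1 FPKM in S2 cells, so that they met it only through SIN3 187HA cells and had to be higher there. They are *Vha68-3*, *Vha16-5*, *Vha36-2* and *Vha36-3*, and their direction is not a result. The other 5 were at least 1 FPKM in S2 cells. Of these 5, *Vha100-1*, *Vha68-1* and *VhaAC39-2* were lower in SIN3 187HA cells, and *VhaM9.7-c* and *Vha100-4* were higher. For *VhaAC39-2* the bias runs the other way, since it met the criterion through S2 cells, with less than 1 FPKM in the other group.

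*VhaAC39-2*, the second gene for subunit d, had the largest change of all 33 genes. It lies on 3R from 18983739 to 18985038 and was at 4.75 FPKM in S2 cells, against 0.384 FPKM in SIN3 187HA cells, 12.4-fold lower. These values stand for about 225 and 19 fragments over the 3 libraries of a group. The ratio of 0.0809 has a 95% Clopper-Pearson interval of 0.0481 to 0.130, which covers counting error only. Its share of the FPKM of subunit d was 2.71% in S2 cells, against 0.463% in SIN3 187HA cells. As *VhaAC39-2* counted as expressed through S2 cells, its direction is not a result. The summed FPKM of subunit d had a log2 change of -1.08, the lowest of the 15 subunits. *VhaAC39-1* made up 97.3% of that sum in S2 cells, against 99.5% in SIN3 187HA cells.

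*VhaM9.7-c*, a second gene for subunit e, was the most abundant of the other copies with a higher level in SIN3 187HA cells. It was at 43.0 FPKM in S2 cells, against 71.8 FPKM in SIN3 187HA cells, a ratio of 1.67. As *VhaM9.7-b* was lower, the share of *VhaM9.7-b* in the FPKM of subunit e was 85.3% in S2 cells, against 68.8% in SIN3 187HA cells, the largest shift between copies of 1 subunit. The locus that the table gives for *VhaM9.7-c*, on 3L from 4173884 to 4193788, is shared with 3 rows. These rows hold *CG18675* and genes of the tipE family, and each was below 2 FPKM. The 24 nearest expressed rows around *VhaM9.7-c* had a median log2 change of 0.39, with 5 of 24 below 0. *VhaM9.7-c* lay above that median by 0.34.

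*Vha100-4*, a further gene for subunit a, was at 3.55 FPKM in S2 cells, against 6.69 FPKM in SIN3 187HA cells. Its ratio was 1.88, with a counting interval of 1.67 to 2.13. *Vha68-1*, a second gene for subunit A, was at 14.8 FPKM in S2 cells, against 10.2 FPKM in SIN3 187HA cells, 30.8% lower. *Vha68-2* exceeded it 17.1-fold in S2 cells, against 27.6-fold in SIN3 187HA cells. The genes for subunit A are close in sequence, and how the authors' counting divided reads that match both is not given in the sources used here.

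The 4 copies that met the criterion through SIN3 187HA cells stayed below 2 FPKM there. *Vha16-5* was at 0.657 and 1.86 FPKM and shares its locus with the row of *CG12299*, which was at 16.2 and 18.9 FPKM. *Vha68-3* was at 0.940 and 1.81 FPKM. *Vha36-2* was at 0.849 and 1.32 FPKM, and *Vha36-3* at 0.824 and 1.34 FPKM. Together the low copies of subunit D made up 1.26% of its FPKM in S2 cells, against 2.33% in SIN3 187HA cells.

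The remaining 9 genes were not expressed by the criterion. *Vha100-3*, *Vha16-4* and *VhaM9.7-d* were listed at 0 in both groups. *Vha16-2*, *Vha16-3*, *VhaM9.7-a* and *Vha14-2* rested on fewer than 10 estimated fragments in each group, so that no difference was detectable at this depth. *Vha100-5* was at 0.618 FPKM in S2 cells, against 0.125 FPKM in SIN3 187HA cells, and *VhaPPA1-2* at 0.231 and 0.857 FPKM. The ratio of *Vha100-5* was 0.202 with a counting interval of 0.104 to 0.343, and that of *VhaPPA1-2* was 3.72 with an interval of 1.32 to 12.5. Beyond the 33, *CG31030* and *CG5421* are related to *VhaAC45* by their names in RefSeq but are listed under other symbols. *CG31030* was at 0.0805 and 0.0394 FPKM, and *CG5421* at 0.239 and 0.199 FPKM, so *VhaAC45* was the only one of these genes with more than traces.

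Stretches of neighbouring genes are higher or lower together in places of this table, so each leading copy was set beside the 24 nearest expressed rows, 12 on each side. The neighbour medians of the 15 leading copies had a median of -0.08. Measured against its own neighbours, a leading copy lay lower in 12 of 15 cases, and the median of these differences was -0.48 on the log2 scale. The same count was not made over all rows, so no background share stands beside it. Neighbours were taken from a mean of 1 FPKM upward, whereas all leading copies lay above 50 FPKM. Of rows of at least 50 FPKM 59.3% were below 0, against 52.5% of all expressed rows. Several leading copies lay in stretches that were lower too, *VhaSFD* most of all. Around *VhaSFD* the neighbours had a median of -1.09, with 22 of 24 below 0, and *VhaSFD* lay 0.15 above them. *Vha13* had a neighbour median of -0.46, with 19 of 24 below 0, and lay below its neighbours by -0.34. For *VhaAC39-1* the neighbour median was -0.38, with 17 of 24 below 0. That of *Vha14-1* was -0.24, with 18 of 24 below 0, and -1.47 with 6 rows on each side. *Vha36-1* lay level with its neighbours, with a difference of 0.00. For *VhaM9.7-b* the opposite held, since its neighbours had a median of 0.43 and the gene lay below them by a log2 difference of -1.09. *Vha55* also lay below its neighbours, by -0.93. Their median was 0.26, with 11 of 24 below 0. With 24 rows on each side that median was 0.02 and the difference -0.68. *VhaAC39-1* lay below its neighbours by -0.67, so that it did not reach a 2-fold difference against them. The difference for *VhaAC39-2* was -3.46, but that gene counted as expressed through S2 cells, so nothing is read from its direction.

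**Figure D3:**
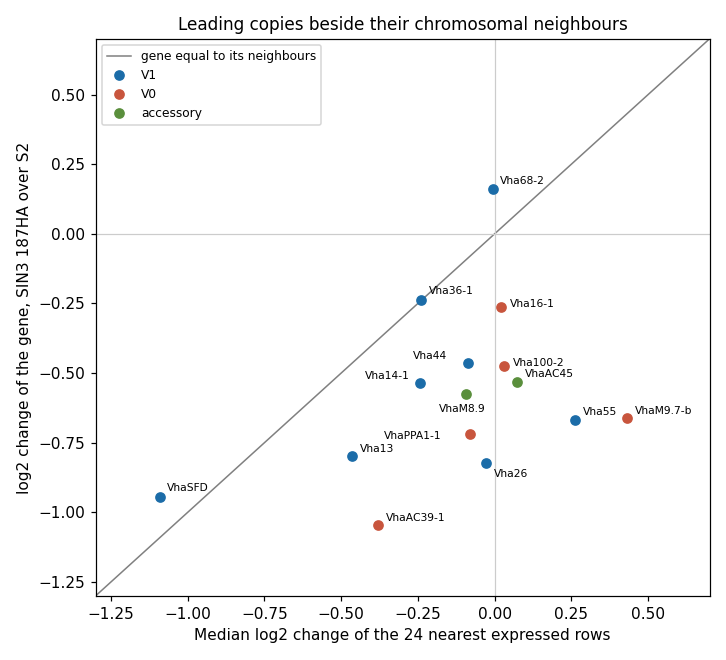
Log2 change of the 15 leading copies against the median log2 change of their 24 nearest expressed rows on the same chromosome arm, with colours for the sector. On the grey line a gene equals its neighbours: 12 of 15 genes lie below it, and *VhaSFD*, with a neighbour median of -1.09, lies just above it at the far left. The share of all rows below their neighbours was not computed.

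Genes that work with the pump were taken from lists, which were chosen with earlier results of these data known. The list of assembly and regulation genes holds 5 genes, all expressed. Of these, 1 was lower by at least 2-fold and 0 were higher by as much, beside 12.3% and 12.9% of all expressed rows. The one past the limit was *Mitf*, the fly homologue of the MITF and TFEB transcription factors. In *Drosophila*, Mitf is known to activate vacuolar ATPase and lysosomal genes. It was at 45.2 FPKM in S2 cells, against 10.9 FPKM in SIN3 187HA cells, 4.15-fold lower. *Mitf* lies on chromosome 4 from 1219478 to 1228193, where its nearest 14 expressed rows were lower too, with a median log2 change of -1.10 and 13 of 14 below 0. It lay below them by -0.94. Whether the level of *Mitf* bears on that of the pump genes was not tested. *Rbcn-3A* and *Rbcn-3B* encode rabconnectins, which promote assembly of V1 with V0. They differed in direction, with log2 changes of -0.71 and 0.83. *Rbcn-3B* shares its locus with 5 other rows, so its reads may be less cleanly assigned, whereas *Rbcn-3A* shares its locus with 0.

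The TORC1 machinery that the pump contacts on the lysosome lay within the limit. All 9 genes of that list, among them *RagA*, *RagC*, *Tor* and *Rheb*, were expressed, 0 were past the limit, and their median log2 change was -0.02. Of all expressed rows 12.3% were lower and 12.9% higher past that limit, and these shares also stand beside the counts of the lists below. In this list *CG14184*, *CG5189* and *raptor* each share a row with another gene. Of 9 listed genes for lysosomal membrane proteins and transporters, 7 were expressed, with a median of -0.51, and 1 was at least 2-fold lower. This was *Npc2a*, which encodes a soluble sterol carrier of the lysosome, at 231 FPKM in S2 cells, against 68.3 FPKM in SIN3 187HA cells. *Lamp1*, an abundant membrane glycoprotein of the lysosome, was at 1235 and 709 FPKM, a log2 change of -0.80. *ClC-b*, a chloride transporter gene with a log2 change of 0.60, shares the locus of *Sin3A* in the table.

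The hydrolases that need an acidic lumen went both ways. Of 12 listed genes 11 were found and 8 expressed, with a median log2 change of 0.28 and 0 past the limit. *Cp1*, which encodes cathepsin L and shares a row with *CG42806*, was at 2861 FPKM in S2 cells, against 1569 FPKM in SIN3 187HA cells. *cathD*, the gene for cathepsin D, was at 594 and 941 FPKM. The 7 expressed genes for HOPS subunits and Rab7, which bring vesicles to the lysosome, had a median of -0.11 with 0 past the limit.

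**Figure D4:**
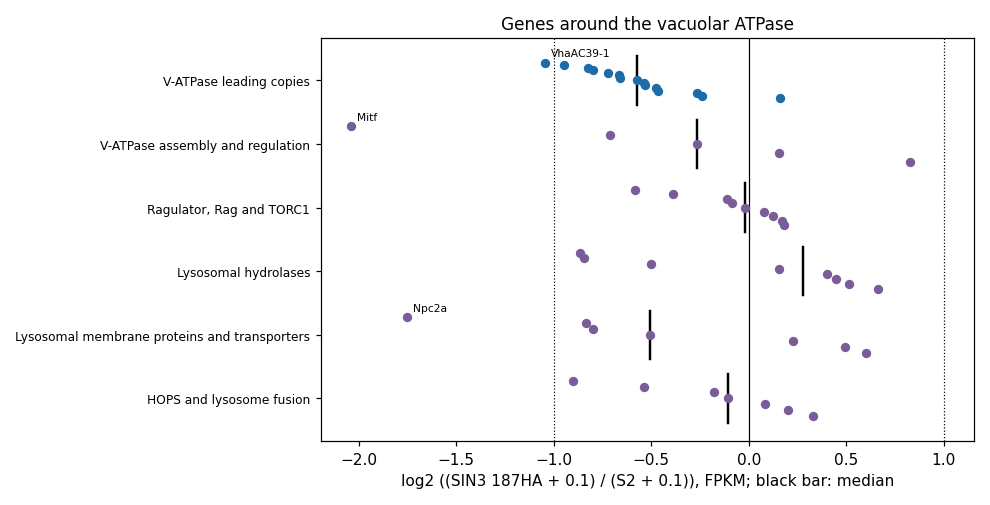
Log2 changes of the 15 leading copies and of the expressed genes of 5 lists, with a black bar at each median and dotted lines at a 2-fold difference. The medians are -0.58 for the leading copies and -0.26, -0.02, 0.28, -0.51 and -0.11 for the lists from top to bottom, and the labelled genes are those past the limit.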

How the data were processed

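RNA-seq was carried out by the authors on total RNA from 3 replicates of S2 cells and 3 of SIN3 187HA cells. Read pairs were mapped by the authors with Bowtie2/Tophat on the dm3 build, and Cufflinks and cuffdiff, with default parameters, gave the level of each RefSeq gene. Tool versions are not given in the sources used here. The authors deposited 1 FPKM value per gene and group, scaled by cuffdiff over the combined replicates. Columns of the authors' own comparison (log2 fold change, test statistic, p, q and a call) were not used. The unit of the CuSO4 dose is µM in the labels and M in the study's methods. Start positions were raised by 1 to count from 1.

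From the FPKM values, log2 changes were computed with a pseudocount of 0.1 for rows with a mean of at least 1 FPKM (Python 3.11.15, pandas 2.3.3). With 1 value per group no test was run. Background shares stand beside counts of changed rows, but none was computed for the comparison with neighbours. Every row starting with Vha was described. Values were given in full for leading copies and for expressed copies, and list genes were named when past the limit or, after their values were seen, as examples. Of the 33 symbols 32 matched RefSeq symbols and 1 a synonym. Members and lists were chosen with earlier results of these data known. Estimated fragments used the step of the lowest FPKM values of genes with 1 transcript over 1500 nt, transcript lengths from the later BDGP6 annotation, averaged over the transcripts of a gene, and a fragment of 200 nt. Neighbours were expressed rows on the same arm that do not overlap the gene. Alternatives covered the pseudocount, the FPKM minimum, the fold limit, centring, shared loci and the number of neighbours. Promoter and protein sequences were not analysed here.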

Additional observations from a re-analysis of the deposited data

How the results depend on the processing

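No paired analysis was possible because the deposited columns hold 1 combined value per group. For the same reason no replicate could be left out. The median log2 change of the expressed pump genes, -0.50, stayed between -0.54 and -0.46 under the 7 alternatives tried. The 2 lower genes became 1 with a minimum of 10 or of 50 FPKM, since *VhaAC39-2* is then left out, and 1 without arm X, which leaves out *VhaAC39-1*. They became 3 without a filter on FPKM, with *Vha100-5* added. The 1 higher gene became 0 with a pseudocount of 1, with a minimum of 10 or 50 FPKM, and among rows alone at their locus, and became 2 without that filter. With a limit of 1.5-fold there were 8 lower and 5 higher pump genes. At that limit the 36 expressed genes of the 5 lists around the pump had 8 lower and 3 higher, in place of 2 and 0, beside 21.4% and 21.2% of all expressed rows. With leading copies only, the V1 median moved from -0.50 to -0.60 and the V0 median from -0.37 to -0.66. Against neighbours, the median difference of leading copies was -0.56 with 6 rows on each side and -0.41 with 24, while *Vha36-1*, *Vha14-1* and *VhaSFD* changed sides under 1 or both of these settings. The minimum of 50 FPKM and the omission of arm X were chosen after seeing the data. Depth limits the low copies, and the absence of values per replicate limits every difference.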

Other observations

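Several copies of 1 subunit lie side by side, and the changes of adjacent copies are given here side by side. *Vha100-4* and *Vha100-2* lie 519 nt apart on 3R, and their log2 changes were 0.90 and -0.47. *VhaPPA1-2* and *VhaPPA1-1* lie 2048 nt apart on the same arm, with log2 changes of 1.53 and -0.72, though the former rests on about 5 fragments in S2 cells, against 19 in SIN3 187HA cells. *Vha68-2* and *Vha68-3* are 178 nt apart on 2L, with log2 changes of 0.16 and 0.88. *Vha68-3* counted as expressed only through SIN3 187HA cells, so its direction is not a result. *Vha68-1*, 19476 nt beyond *Vha68-3*, had a log2 change of -0.53. *Vha16-3* and *Vha16-2*, 985 nt apart on 3L, rest on 4 or fewer fragments in each group and are not compared. The pairs were singled out after their values were seen, and the differences within them could not be tested.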
